A study of Mus musculus with 36 samples.

Results

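Line 621 is a mouse lymphoma line with the labelled background Em-myc, in which a Myc transgene drives B cell tumours. Its response to nutlin-3a was read from 12 of the 36 RNA sequencing libraries of the series, those whose labels name this line. The nutlin group (n = 6 libraries) and the untreated group (n = 6 libraries) each hold 1 culture per construct: 5 mutants of TRP53, called R270H, I192S, R246Q, V170M and G280 in the labels, and the negative control. Treated cultures received 5 µM nutlin-3a for 12 hours together with 25 µM QVD-OPH, a broad caspase inhibitor, per the labels' protocols. No label says whether untreated cultures also received QVD-OPH, so what is called the nutlin response can hold effects of that inhibitor. All 12 cultures carry the Myc transgene and are made from 1 line. Per the design text the mutants are of human TRP53, whereas the counts are of mouse genes, and the labels do not say what drives the constructs. The labels name 1 library for each construct and treatment, and no repeat cultures, so the p-values below measure the spread between constructs of this line. The other lines, 287 and AH47A, have 12 libraries each and serve for comparison.

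The transcription factor p53 is kept low in unstressed cells by MDM2, a ubiquitin ligase that binds it and marks it for degradation. Nutlin-3a occupies the p53 pocket of MDM2, so wild-type p53 accumulates without DNA damage. It then switches on genes that stop the cell cycle, genes that start apoptosis, and genes that feed back on p53 itself. In lymphomas driven by MYC this pathway is a main barrier to growth, and mutant p53 proteins can interfere with the wild-type protein because p53 works as a tetramer.

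The 621 libraries held 5404113 to 8084362 counts after nutlin (median 6643273) and 7791101 to 10718302 untreated (median 9521376). The first principal component of log2 CPM (counts scaled to the size of each library) took 68.7% of the variance and placed the 6 nutlin libraries between 12.7 and 46.0 and the untreated ones between -33.9 and -29.1. The nutlin libraries of G280 (12.7) and V170M (18.0) lay nearest to the untreated ones, and the other 4 lay at 32.6 or above. Markers of B cells were expressed in all 12 libraries. Among markers of other cell types, Cd3e, Cd4 and Cd8a (T cells), Adgre1, Elane and S100a8 (myeloid cells), Ncr1 and Nkg7 (NK cells) and Col1a2 and Col3a1 (stroma) had 0 counts in all 12. The T cell marker Cd2 was expressed in all 12.

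Nutlin changed the level of more than every second gene that could be tested in line 621. Of 10673 genes, 6291 passed the test (58.9%, edgeR adjusted p under 0.05, paired by construct), 3176 of them higher (29.8%) and 3115 lower (29.2%). Most of the changes were small, with a median absolute log2 fold change of 0.44 among the genes called. A change of more than 2-fold was seen in 422 genes that rose and 216 that fell, so large rises outnumbered large falls. The median log2 fold change of all tested genes was -0.01.

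The changes shared by all 6 constructs were counted from the difference in log2 CPM within each construct. Of the genes called, 5287 kept 1 sign in all 6 pairs (49.5% of all tested), 2691 of them higher (25.2%) and 2596 lower (24.3%). The other 1004 called genes had at least 1 pair of the opposite sign. A change beyond 1 log2 unit in every pair was found for 207 genes (1.94%), of which 181 rose (1.7%) and 26 fell (0.244%). The shared large rises came mostly from genes that were little expressed before treatment. Their median level was 25.2 CPM after nutlin and 3.35 CPM untreated, and 58 of the 181 (32.0%) were under 1 CPM untreated, against 0.796% of all tested genes. A gene this low untreated entered the test through its nutlin libraries, so it had to differ, and its count supports nothing further. The 26 shared large falls had a median of 8.53 CPM after nutlin and 27.7 CPM untreated.

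**Figure D1:**
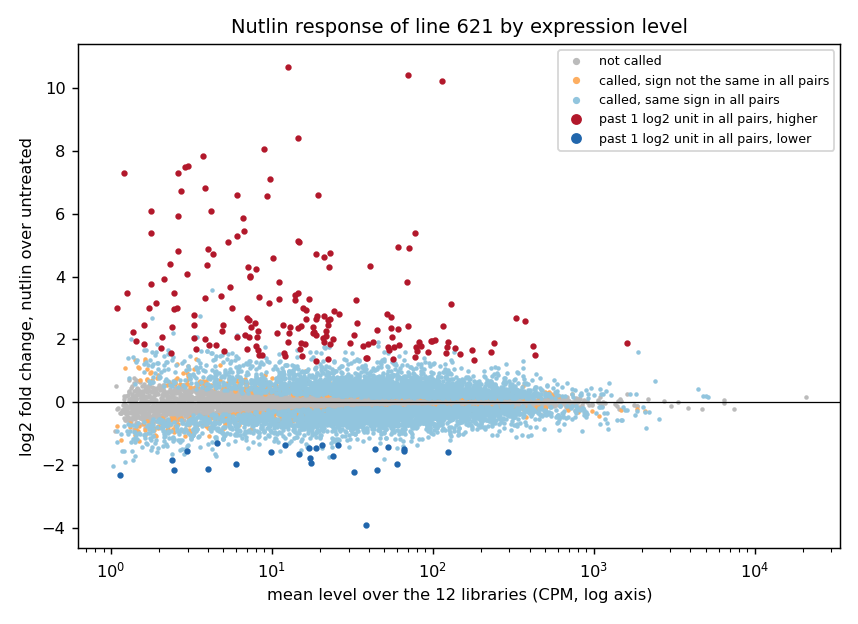
Log2 fold change (nutlin over untreated) of each of the 10673 tested genes of line 621 against its mean level over the 12 libraries in CPM, on a log axis. Red and dark blue points are the 181 and 26 genes that changed beyond 1 log2 unit in all 6 construct pairs, and the red points reach much further from 0 than the dark blue ones.

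Trp53 itself, whose counts can hold both the endogenous transcript and that of the construct, went in different directions by construct. Its level was 788, 592, 679, 442 and 1267 CPM after nutlin in G280, I192S, R246Q, R270H and V170M, against 1030, 672, 1078, 759 and 1352 CPM untreated. In the negative control it was 300 CPM after nutlin and 201 CPM untreated. All 5 mutants thus had more Trp53 reads than the control under either treatment, and the pairs changed by -0.09 to -0.78 log2 units in the mutants and by 0.57 in the control. Over the 6 pairs Trp53 did not pass the test (-0.27 ± 0.13, adjusted p = 0.0921). Without the control pair it did (-0.43, adjusted p = 0.00115). Trp53 lies on chromosome 11, 69580348 to 69591873 of GRCm38.

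Classical p53 targets rose in every construct. Cdkn1a encodes p21, the cyclin-dependent kinase inhibitor that arrests the cycle in G1. It ranged from 103 to 234 CPM after nutlin (median 142) and from 2.32 to 6.26 CPM untreated (median 3.26). The groups lay far apart, a 42.0-fold rise (log2 5.39 ± 0.12, adjusted p = 1.33e-12), with pairs from 4.62 in G280 to 5.85 in I192S. Of 11 tested arrest genes 7 rose and 1 fell, with a median log2 fold change of 0.43 against -0.01 over all tested genes. The shares over all tested genes were 29.8% higher and 29.2% lower. Psrc1, a microtubule-associated protein gene, ranged from 83.0 to 215 CPM after nutlin and from 6.53 to 11.7 CPM untreated, and rose by 3.82 ± 0.12. Gtse1, whose product binds p53 and moves it out of the nucleus, rose by 1.52 ± 0.09, and Btg1, an antiproliferative gene, by 0.46 ± 0.07. Sfn, which encodes the checkpoint protein 14-3-3 sigma, fell (-0.83 ± 0.17, adjusted p = 0.000761) with groups that overlapped slightly. Plk2, a p53-induced kinase gene named after its counts were seen, was too low to test, with 27 counts in the 6 nutlin libraries and 15 in the 6 untreated ones.

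Most genes that feed back on p53 rose too, with a list median of 0.76 against 0.43 for the arrest genes. Ccng1 encodes cyclin G1, which recruits a phosphatase to MDM2. It ranged from 467 to 686 CPM after nutlin (median 543) and from 79.9 to 114 CPM untreated (median 85.7). This 6.36-fold rise (log2 2.67 ± 0.06, adjusted p = 1.51e-12) was among the most even across constructs, with 5 pairs between 2.55 and 2.67 and R270H at 2.93. Mdm2 ranged from 196 to 365 CPM after nutlin (median 262) and from 75.7 to 85.7 CPM untreated (median 83.0), a 3.17-fold rise without overlap (1.67 ± 0.09, adjusted p = 1.30e-08). Its pairs ran from 1.29 in G280 to 2.14 in the control. Ppm1d, the gene of a phosphatase that switches the p53 response off, rose by 0.75 ± 0.07. Of the 6 feedback genes 5 rose and 1 fell (median 0.76), beside 29.8% higher and 29.2% lower over all tested genes. The one that fell was Cop1, a ubiquitin ligase gene for p53 (-0.67 ± 0.09, adjusted p = 2.22e-05), at 17.4 to 24.8 CPM after nutlin and 27.4 to 37.1 CPM untreated.

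The regulatory sequence next to these genes is shown because p53 acts through a decamer that, as a pair, forms its response element. A search of the 250 bases before each RefSeq start, on both strands, found this p53 decamer in 17 of 61 tested p53 targets with a promoter sequence (27.9%), against 6.86% of all 8225 tested genes with one. Cdkn1a and Mdm2 were the called targets with the smallest adjusted p among those with a match at the gene's start. The sequences are from RefSeq (GRCm38.p6), read 5′ to 3′ on the gene's strand, and capitals mark the match, which begins 73 and 51 bases before the start in Cdkn1a and 186 bases before it in Mdm2.
Cdkn1a, chr17:29090729-29090978 (plus strand): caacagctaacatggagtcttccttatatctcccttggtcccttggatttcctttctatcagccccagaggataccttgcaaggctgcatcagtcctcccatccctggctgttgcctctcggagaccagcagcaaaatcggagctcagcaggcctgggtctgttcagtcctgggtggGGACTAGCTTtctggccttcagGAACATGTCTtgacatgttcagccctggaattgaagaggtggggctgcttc
Mdm2, chr10:117710759-117711008 (minus strand): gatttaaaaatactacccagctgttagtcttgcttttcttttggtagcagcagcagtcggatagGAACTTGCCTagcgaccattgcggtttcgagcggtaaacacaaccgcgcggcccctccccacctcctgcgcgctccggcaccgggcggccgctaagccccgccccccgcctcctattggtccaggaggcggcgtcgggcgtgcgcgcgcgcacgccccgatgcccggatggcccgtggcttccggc
A match is a description of the letters and not a measured binding site. The Mdm2 window holds a lone decamer rather than a pair. Sequence outside these windows, such as the introns of Mdm2, was not searched.

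By median log2 fold change, apoptosis genes were the most responsive of the p53 target lists for arrest, feedback, repair, metabolism and apoptosis. The list of other p53 targets stood slightly higher, at 1.32. These medians include genes nearly off untreated, such as Fas, Phlda3, Ephx1 and Cd80. Such genes entered the test through their nutlin libraries and had to rise, so their part in the medians and counts supports nothing further. Of 13 tested apoptosis genes 10 rose and 1 fell, with a median log2 fold change of 1.25. The shares over all tested genes were 29.8% higher and 29.2% lower. Pmaip1, which encodes the BH3-only death protein NOXA, ranged from 74.2 to 195 CPM after nutlin (median 156) and from 3.44 to 5.63 CPM untreated (median 4.46), a 30.2-fold rise (4.91 ± 0.16, adjusted p = 6.07e-11). Bbc3, the gene of the BH3-only protein PUMA, ranged from 40.3 to 150 CPM after nutlin (median 84.5) and from 8.55 to 17.6 CPM untreated (median 14.1), a 6.49-fold rise (2.70 ± 0.13, adjusted p = 2.74e-09). Neither gene's groups overlapped, as was true of 3520 of the 10673 tested genes. Bax, whose product perforates mitochondria, rose less, at 147 to 216 CPM after nutlin and 72.0 to 97.4 CPM untreated (2.04-fold, 1.03 ± 0.07, adjusted p = 1.26e-07). The death receptor gene Fas had 203 counts in the 6 nutlin libraries and 1 in the untreated ones (ratio 290, 95% interval 51.5 to 11508, counting error only). Phlda3, an inhibitor of AKT, ranged from 8.06 to 35.4 CPM after nutlin and from 0 to 0.279 CPM untreated, and its control pair (7.16) was above the mutant pairs (4.50 to 5.94). Trp53inp1, whose product partners p53 under stress, rose by 1.79 ± 0.08 to 434 to 880 CPM, against 112 to 233 CPM untreated. Siva1, a proapoptotic gene, fell (-0.55 ± 0.09, adjusted p = 0.000107).

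In the wider BCL2 family of 11 tested genes, 4 rose and 1 fell, beside 29.8% higher and 29.2% lower over all tested genes. Besides Pmaip1, Bbc3 and Bax, the riser was Bcl2l11, which encodes BIM, also a BH3-only protein. It ranged from 118 to 221 CPM after nutlin and from 63.1 to 75.4 CPM untreated (1.23 ± 0.10, adjusted p = 7.21e-07), without overlap. Bad, of the same class, fell (-0.56 ± 0.15, adjusted p = 0.00521), with groups that overlapped. Of the antiapoptotic members, Mcl1 and Bcl2 did not pass the test: Mcl1 was at -0.15 ± 0.07 (adjusted p = 0.0632) and Bcl2 at -0.15 ± 0.11 (adjusted p = 0.259), both named after their values were seen.

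Targets with roles in repair, metabolism and elsewhere split, beside 29.8% higher and 29.2% lower over all tested genes. Of 8 tested repair genes 4 rose and 1 fell. Ercc5, the excision repair nuclease gene, rose by 2.81 ± 0.13, Polk, the gene of a translesion polymerase, by 1.76 ± 0.09 and the ribonucleotide reductase gene Rrm2b by 1.16 ± 0.10. Polh, which encodes another translesion polymerase, fell (-0.33 ± 0.06, adjusted p = 0.000412). Of 15 tested metabolic targets 7 rose and 4 fell. Sesn2, an inhibitor of mTORC1 signalling, ranged from 25.3 to 68.5 CPM after nutlin and from 4.37 to 9.27 CPM untreated (2.81 ± 0.20), while its relative Sesn1 fell (-0.44 ± 0.08, adjusted p = 0.000437). The lipin gene Lpin1 rose by 3.27 ± 0.20 and the acyl-CoA dehydrogenase gene Acad11 by 1.04 ± 0.11, and Ak1, an adenylate kinase gene, ranged from 4.57 to 26.3 CPM after nutlin against 0 to 0.279 CPM untreated. Gls2, glutaminase 2, fell (-0.62 ± 0.15, adjusted p = 0.00262), with overlapping groups. Of 20 other targets 12 rose and 3 fell, with a median of 1.32. Zmat3, an RNA-binding protein gene, ranged from 488 to 823 CPM after nutlin and from 82.5 to 194 CPM untreated (2.57 ± 0.08). Ephx1, an epoxide hydrolase gene, rose by 6.58 ± 0.22, and the T cell costimulator gene Cd80 by 5.44 ± 0.25. Steap3 (-0.76 ± 0.08), Tnfaip8 (-0.62 ± 0.11) and Trp53i11 (-0.48 ± 0.06) fell. Ak1, Ephx1 and Cd80, nearly off untreated, entered the test through their nutlin libraries and had to rise. Their part in these counts supports nothing further.

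**Figure D2:**
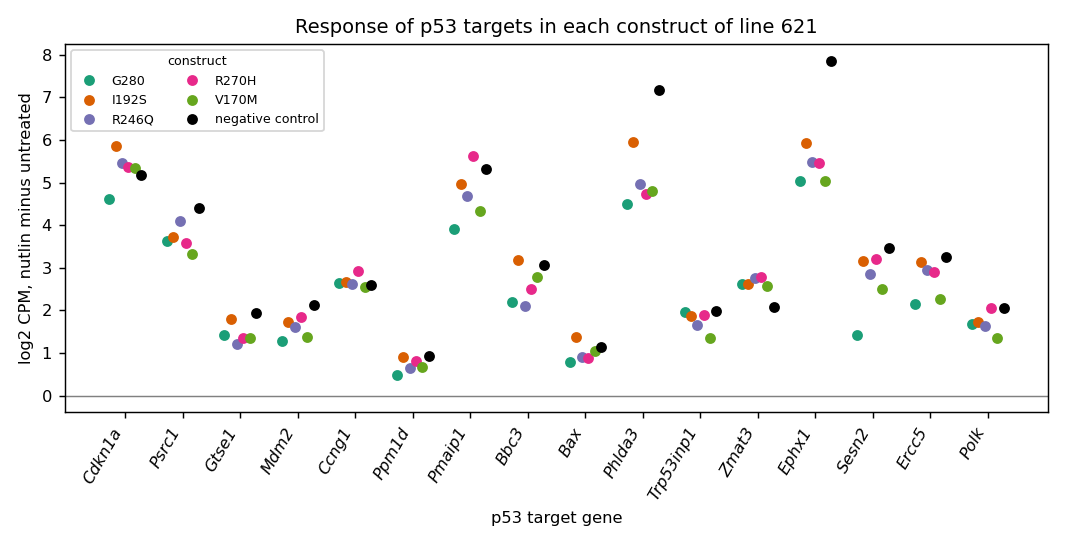
Difference in log2 CPM, nutlin minus untreated, of 16 p53 target genes in each of the 6 constructs of line 621, 1 point per construct. All points lie above 0; the constructs lie close together for Ccng1 and Ppm1d and spread by over 2 log2 units for Phlda3, Ephx1 and Sesn2, where the control was highest.

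The 3 largest rises of the line were in antiviral and interferon-induced genes. Ifit1, whose product binds viral RNA, ranged from 115 to 293 CPM after nutlin (median 274) and from 0 to 0.373 CPM untreated (median 0.153), a rise in every pair (10.23 ± 0.14, adjusted p = 9.41e-15). Rsad2, the gene of the antiviral enzyme viperin, ranged from 30.2 to 214 CPM after nutlin (median 178) and from 0 to 0.186 CPM untreated. Cxcl10, the gene of an interferon-induced chemokine, had 1007 counts after nutlin and 0 untreated, at least 479-fold higher against a floor of 3 counts over the 6 libraries. Every one of these genes was off or nearly off before treatment and on in all 6 nutlin libraries. Oasl1, an oligoadenylate synthetase-like gene, ranged from 9.40 to 41.8 CPM after nutlin and from 0 to 0.238 CPM untreated. Isg15, a ubiquitin-like modifier, had 292 counts after nutlin and 1 untreated (ratio 417, 95% interval 74.3 to 16530). Gbp5, a guanylate-binding protein gene, had 243 and 1 (ratio 347, 61.7 to 13765), and Rtp4 had 232 and 1 (ratio 331, 58.9 to 13145). Ifit3 and Ifit3b, near-identical neighbours between which reads can be split, had 714 and 305 counts after nutlin and 3 each untreated.

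Of 18 tested interferon response genes 16 rose and none fell, with a median log2 fold change of 2.11. The shares over all tested genes were 29.8% higher and 29.2% lower. The 16 also rose in each of the 6 pairs. Members nearly off untreated, such as Ifit1, Rsad2 and Isg15, entered the test through their nutlin libraries and had to rise. Their part in these counts and in the median supports nothing further. Ifih1, which encodes MDA5, a sensor of viral RNA, rose by 5.85 ± 0.21 and Ifit2 by 4.95 ± 0.16. Irf9 (1.60 ± 0.14), the gene of a transcription factor that carries the interferon signal, was named after its values were seen and rose less. Another 12 listed genes were too low in 621 to test. Among them, named after their counts were seen, Irf7, the factor that amplifies interferon production, had 226 counts after nutlin and 15 untreated, Oas2 had 136 and 7, Xaf1 had 131 and 9, and Mx2 had 187 and 1 (ratio 267, 47.4 to 10606). Ifi44 had 0 counts in all 12. The list's median pair response was 2.64 in I192S, 2.35 in R270H, 2.09 in R246Q, 1.31 in V170M and 1.14 in G280, against 2.32 in the control, so G280 and V170M were the lowest constructs here as well.

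Interferon-induced genes often carry an ISRE, searched here as a pair of GAAA runs with any 2 bases between them, on both strands of the 250 bases before the start. It was present in 6 of 14 tested list members with a promoter sequence (42.9%), against 3.03% of all tested genes with one. Ifit1 and Rsad2 had the smallest adjusted p among the called members with a match at the gene's start. They are shown with the match in capitals. In these windows the ISRE, κB and amino acid response matches shown appear as the reverse complement of the letters searched.
Ifit1, chr19:34640639-34640888 (plus strand): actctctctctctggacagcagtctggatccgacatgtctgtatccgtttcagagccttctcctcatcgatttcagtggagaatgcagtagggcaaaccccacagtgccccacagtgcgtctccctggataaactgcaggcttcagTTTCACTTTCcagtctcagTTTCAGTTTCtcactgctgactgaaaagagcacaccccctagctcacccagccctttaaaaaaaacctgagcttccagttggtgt
Rsad2, chr12:26456453-26456702 (minus strand): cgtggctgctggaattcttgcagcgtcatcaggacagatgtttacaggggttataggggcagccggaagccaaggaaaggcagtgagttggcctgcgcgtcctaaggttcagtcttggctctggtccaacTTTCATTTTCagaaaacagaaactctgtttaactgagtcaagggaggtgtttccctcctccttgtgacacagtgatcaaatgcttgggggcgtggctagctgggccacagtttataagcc
The matches begin 104 and 85 bases before the start of Ifit1 and 120 bases before that of Rsad2.

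NF-kB genes rose as well, among them subunits and inhibitors of the pathway. Of 15 tested members 12 rose and none fell, with a median of 1.63, and the 12 rose in each pair. Over all tested genes 29.8% were called higher and 29.2% lower, and 25.2% were called higher with a rise in each pair. Members low untreated, such as Tnfaip3, entered the test through their nutlin libraries and had to rise. Their part in these counts and in the median supports nothing further. Rel, the gene of the subunit c-Rel, ranged from 53.1 to 111 CPM after nutlin and from 15.3 to 27.3 CPM untreated (2.07 ± 0.09, adjusted p = 1.42e-09). Nfkbia, the gene of the inhibitor IκBα, ranged from 104 to 140 CPM after nutlin and from 34.3 to 42.3 CPM untreated (1.63 ± 0.06). Nfkbie, the gene of IκBε, rose by 3.26 ± 0.11. Tnfaip3, the gene of the brake A20, ranged from 8.06 to 19.3 CPM after nutlin and from 0.511 to 1.08 CPM untreated (4.23 ± 0.17). None of these 4 genes' groups overlapped, as was true of 3520 of the 10673 tested genes. The list's median pair response ran from 1.38 in G280 to 1.72 in I192S among the mutants, against 1.802 in the control. The κB site, searched as GGG, any 2 bases and TTTCC on both strands, was found in 4 of 11 members with a promoter sequence (36.4%), against 1.76% of all tested genes. Nfkbia and Tnfaip3 had it close to the start, 29 and 12 bases before it.
Nfkbia, chr12:55492648-55492897 (minus strand): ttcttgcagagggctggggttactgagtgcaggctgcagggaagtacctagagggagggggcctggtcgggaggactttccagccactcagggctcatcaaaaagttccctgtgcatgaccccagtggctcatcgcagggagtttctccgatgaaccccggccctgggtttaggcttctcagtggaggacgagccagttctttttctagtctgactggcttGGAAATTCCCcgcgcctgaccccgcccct
Tnfaip3, chr10:19015411-19015660 (minus strand): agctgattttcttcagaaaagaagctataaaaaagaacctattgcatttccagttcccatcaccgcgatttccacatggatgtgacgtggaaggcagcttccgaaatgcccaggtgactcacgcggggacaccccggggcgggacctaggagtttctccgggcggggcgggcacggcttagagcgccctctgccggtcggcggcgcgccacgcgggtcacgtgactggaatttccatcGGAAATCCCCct

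The ATF4 stress list, which answers amino acid shortage and misfolded protein, also moved up. Of 21 tested genes 17 rose and 1 fell, with a median of 0.82, beside 29.8% higher and 29.2% lower over all tested genes. Trib3, a pseudokinase gene, ranged from 12.6 to 79.4 CPM after nutlin (median 38.7) and from 1.30 to 3.09 CPM untreated (4.29 ± 0.26), and its G280 pair (1.95) lay far under the others (4.26 to 5.20). Ddit3, which encodes CHOP, a stress factor tied to cell death, rose by 2.35 ± 0.18. Chac1, a glutathione-degrading enzyme gene, rose by 3.01 ± 0.25, and Slc3a2, the heavy chain of amino acid transporters, by 1.33 ± 0.11 to 373 to 720 CPM, against 193 to 231 CPM untreated. Phgdh, the first enzyme of serine synthesis, fell (-0.26 ± 0.05, adjusted p = 0.00124). The list's median pair response was 0.34 in G280 and 0.58 in V170M, against 0.79 to 1.20 in the other 4 constructs. The amino acid response element, searched as TGATGNAA on both strands, was found in 6 of 20 members with a promoter sequence (30%), against 2.24% of all tested genes. It is shown for Chac1 and Atf3, which had the smallest adjusted p among the called members with a match at the gene's start, 193 and 110 bases before it.
Chac1, chr2:119350992-119351241 (plus strand): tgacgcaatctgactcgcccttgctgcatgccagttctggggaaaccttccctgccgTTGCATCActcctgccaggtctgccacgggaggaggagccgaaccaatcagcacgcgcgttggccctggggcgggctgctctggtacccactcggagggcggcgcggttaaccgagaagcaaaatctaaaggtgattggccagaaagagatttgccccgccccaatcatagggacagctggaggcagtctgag
Atf3, chr1:191183334-191183583 (minus strand): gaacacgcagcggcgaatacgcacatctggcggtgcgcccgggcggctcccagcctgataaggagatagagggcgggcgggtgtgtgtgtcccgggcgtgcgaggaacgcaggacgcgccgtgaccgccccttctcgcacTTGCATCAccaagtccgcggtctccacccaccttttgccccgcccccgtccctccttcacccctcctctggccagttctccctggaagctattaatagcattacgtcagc

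**Figure D3:**
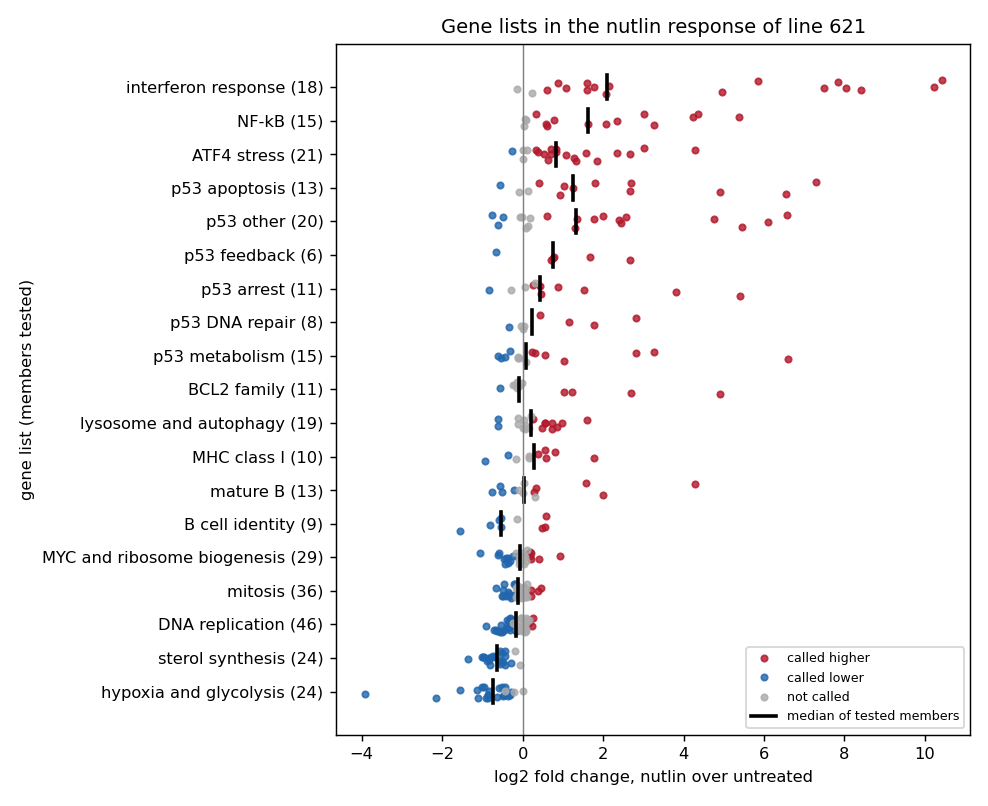
Log2 fold change (nutlin over untreated) of the tested members of 19 gene lists in line 621, 1 point per gene, with the number tested in parentheses and the list's median as a black bar. Red points passed the test upward and blue ones downward. Interferon, NF-kB and p53 lists extend to the right. Blue points make up 22 of 24 sterol and 21 of 24 hypoxia and glycolysis genes, beside 29.2% of all tested genes.

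Among the genes that fell, those of glycolysis and the response to low oxygen stood out by size. Of 24 tested members 21 fell and none rose, with a median of -0.74, beside 29.2% lower and 29.8% higher over all tested genes. Ankrd37, an ankyrin repeat gene induced by hypoxia-inducible factor, had the largest fall of the named genes. It ranged from 2.79 to 7.51 CPM after nutlin (median 4.32) and from 68.4 to 77.1 CPM untreated (median 70.4), without overlap (-3.92 ± 0.16, adjusted p = 4.90e-10). Egln3, an oxygen-sensing prolyl hydroxylase gene, ranged from 10.2 to 21.6 CPM after nutlin and from 53.9 to 118 CPM untreated (-2.16 ± 0.10). Slc2a1, the glucose transporter GLUT1, ranged from 29.8 to 35.9 CPM after nutlin and from 89.9 to 113 CPM untreated (-1.56 ± 0.07, adjusted p = 1.72e-09). Hexokinase 2 (Hk2) fell by 0.85 ± 0.06 on the log2 scale. Slc16a3, the lactate exporter MCT4, is not a member of the list and was named among the 12 largest falls (-2.22 ± 0.20). Each of these 5 genes fell in all 6 constructs. The core letters ACGTG of the hypoxia response element, searched on both strands, were present in 15 of 22 members with a promoter sequence (68.2%), against 26.3% of all tested genes. Egln3 and Slc2a1 are shown with those letters in capitals, 229 and 36 bases before the start.
Egln3, chr12:54203875-54204124 (minus strand): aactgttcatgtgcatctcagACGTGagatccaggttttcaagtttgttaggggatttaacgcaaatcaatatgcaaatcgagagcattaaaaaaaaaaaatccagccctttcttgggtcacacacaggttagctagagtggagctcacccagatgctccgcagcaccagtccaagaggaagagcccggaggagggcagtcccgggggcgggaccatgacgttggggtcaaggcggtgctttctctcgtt
Slc2a1, chr4:119108495-119108744 (plus strand): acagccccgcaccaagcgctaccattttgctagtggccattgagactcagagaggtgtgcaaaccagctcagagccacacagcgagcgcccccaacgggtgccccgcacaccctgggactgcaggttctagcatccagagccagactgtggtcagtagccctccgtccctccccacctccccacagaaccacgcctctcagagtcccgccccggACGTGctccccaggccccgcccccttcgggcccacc

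Sterol synthesis moved down almost as a block. Of 24 tested genes 22 fell and none rose (median -0.65), and 21 fell in each pair. Over all tested genes 29.2% were called lower and 29.8% higher, and 24.3% were called lower with a fall in each pair. Hmgcs1, which makes HMG-CoA, ranged from 59.97 to 128 CPM after nutlin and from 172 to 225 CPM untreated (-1.004 ± 0.10, adjusted p = 2.99e-06). Insig1, the sterol sensor gene, fell by 0.98 ± 0.09 on the log2 scale, farnesyl diphosphate synthase (Fdps) by 0.88 ± 0.08 and squalene epoxidase (Sqle) by 0.83 ± 0.08. The list's median pair response was smallest in G280 (-0.33) and V170M (-0.47) and largest in the control (-1.05).

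Cell cycle and growth genes changed little in size. The counts of their lists stand beside 29.8% higher and 29.2% lower over all tested genes. Among 46 replication genes, 23 fell and 3 rose (median -0.16). E2f2, an activator of S phase genes, ranged from 71.6 to 128 CPM after nutlin and from 171 to 198 CPM untreated (-0.91 ± 0.09). The flap endonuclease gene Fen1 fell by 0.72 ± 0.07 on the log2 scale, Rrm2, a ribonucleotide reductase subunit, by 0.57 ± 0.07 and E2f1 by 0.34 ± 0.09, the last with overlapping groups. Cdc45, Orc6 and Pola1, all of them replication factors, rose by 0.15 to 0.26, and the call of Cdc45 was lost under DESeq2 (adjusted p = 0.0862) and when any 1 of 5 constructs was left out. Of 36 mitosis genes 13 fell and 4 rose (median -0.11). Cenpa, the centromeric histone, fell by 0.66 ± 0.07 on the log2 scale, the kinase gene Cdk1 by 0.50 ± 0.06, Plk1 by 0.48 ± 0.05 and Aurkb by 0.45 ± 0.06. Ndc80 (0.47 ± 0.08), Ect2 (0.39 ± 0.06), Tpx2 (0.21 ± 0.05) and Nek2 (0.21 ± 0.06) rose. Of 29 MYC and ribosome genes 7 rose and 11 fell (median -0.07). Mat2a, which makes the methyl donor SAM, fell by 1.06 ± 0.10 on the log2 scale, the transferrin receptor gene Tfrc by 0.62 ± 0.07 and Cdk4 by 0.46 ± 0.05. Rrn3, a polymerase I initiation factor gene, rose by 0.93 ± 0.07. Myc reads, from the endogenous gene and the transgene together, ranged from 4584 to 5621 CPM after nutlin and from 3613 to 4072 CPM untreated (0.41 ± 0.06, adjusted p = 0.000106).

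Genes of B cell identity moved both ways. For the lists in this paragraph, the shares over all tested genes were 29.8% higher and 29.2% lower. Of 9 tested members 5 fell and 3 rose (median -0.53). Cd79a, a signalling chain of the B cell receptor, ranged from 163 to 251 CPM after nutlin and from 288 to 417 CPM untreated (-0.82 ± 0.09). Cd22, a B cell inhibitory receptor, fell by 0.59 ± 0.06 on the log2 scale. Ebf1 (0.59 ± 0.07), a factor that sets B cell fate, Ptprc (0.56 ± 0.07) and the adaptor gene Blnk (0.48 ± 0.05) rose. Fewer cells of a type and less RNA per cell cannot be told apart in such bulk libraries. Among 13 genes of mature B cells, 5 rose and 4 fell, with the activation marker Cd69 from 8.58 to 18.4 CPM after nutlin and from 0.359 to 1.31 CPM untreated (4.29 ± 0.24), and the germinal centre repressor Bcl6 at 1.997 ± 0.18. The costimulator gene Cd86 rose by 1.56 ± 0.16. The MHC class II genes H2-Aa (-0.76 ± 0.12) and H2-Ab1 (-0.57 ± 0.08), their activator Ciita (-0.52 ± 0.12) and the coactivator gene Pou2af1 (-0.21 ± 0.06) fell, with groups that overlapped. Without pairing by construct, H2-Aa (adjusted p = 0.347) and Ciita (adjusted p = 0.329) were not called. Of 10 MHC class I genes 5 rose and 2 fell. The peptide transporter gene Tap1 (1.78 ± 0.16), Tapbp (0.81 ± 0.10) and B2m (0.58 ± 0.07) rose, while the immunoproteasome genes Psmb10 (-0.94 ± 0.10) and Psmb8 (-0.35 ± 0.07) fell. Of 5 tested early B genes 1 rose, the recombinase gene Rag1 (0.72 ± 0.05), and 3 fell, Vpreb3 (-0.83 ± 0.08), Sox4 (-0.74 ± 0.16) and Rag2 (-0.36 ± 0.13, adjusted p = 0.0242). The call of Rag2 was lost when any 1 of 4 constructs was left out (adjusted p up to 0.0885). Of 4 tested plasma cell genes the factor Irf4 rose (0.26 ± 0.05) and Xbp1 fell (-0.67 ± 0.10).

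Genes of other cell types were low, apart from the T cell marker Cd2. In the model of all 36 libraries Cd2 averaged 102 CPM after nutlin and 92.2 CPM untreated in 621. It averaged 10.6 and 8.32 CPM in 287, and 0.447 and 0.481 CPM in AH47A. The summed T cell markers reached 84.9 to 124 CPM after nutlin and 68.6 to 114 CPM untreated, nearly all of it Cd2, the 1 tested member of 9 (0.17 ± 0.06, adjusted p = 0.0271), whose call was lost under DESeq2 (adjusted p = 0.0529). Myeloid markers summed to 5.91 to 15.4 CPM after nutlin and 3.70 to 6.47 CPM untreated, and 1 of 2 tested members, the integrin gene Itgam, rose (2.27 ± 0.21). NK cell markers summed to at most 1.42 CPM after nutlin and 1.67 CPM untreated, erythroid ones to 1.18 and 4.38 CPM, and stromal ones to 2.76 CPM in either group. The part of these cells in the results above was not tested. Of 19 tested lysosome and autophagy genes 9 rose and 2 fell (median 0.21), beside 29.8% higher and 29.2% lower over all tested genes. Gabarapl1, an autophagosome protein gene, rose by 0.98 ± 0.09, the autophagy kinase gene Ulk1 by 0.73 ± 0.09 and the cargo receptor gene Sqstm1 by 0.72 ± 0.09. Tfeb, the gene of a transcription factor for such genes, fell (-0.62 ± 0.12).

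Other large changes in single genes fell outside these lists. Among genes with a symbol and a mean of at least 5 CPM in the higher group, the 12 largest rises included Micall2, a gene of actin-linked membrane traffic, at 9.67 to 37.8 CPM after nutlin and 0 to 0.383 CPM untreated, and the MAP kinase phosphatase gene Dusp8, with 209 counts after nutlin and 2 untreated (ratio 149, 40.8 to 1241). Above the same minimum, the 12 largest falls included Klf2, a factor of lymphocyte quiescence and homing, at 16.3 to 30.8 CPM after nutlin and 78.8 to 107 CPM untreated (-1.96 ± 0.10). Id3, an inhibitor of E proteins, fell by 1.78 ± 0.15 on the log2 scale, the gut-homing integrin gene Itgb7 by 1.804 ± 0.16, and the Wnt coreceptor gene Lgr5 by 1.71 ± 0.10. Lgr5 levels overlapped between groups, at 5.37 to 17.8 CPM after nutlin and 16.8 to 62.7 CPM untreated, although each pair fell. Slc16a3, given above, was also among the 12 falls and in none of the lists. The remaining falls were Dnah8, a dynein gene (-1.93 ± 0.14), and Rsph9, a radial spoke gene of cilia (-1.97 ± 0.24), with 3 further genes. These were the glycosyltransferase gene B3gnt8 (-2.13 ± 0.22), Sema4g (-1.73 ± 0.13) and Rapgef3, a cAMP-activated exchange factor gene (-1.71 ± 0.23).

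The size of the response differed between constructs. On the measures over all tested genes and over shared changes given here, it was smallest in G280 and V170M. For the p53 targets the median pair response was smallest in G280 (0.44), followed by R246Q (0.53) and V170M (0.54). It was 0.71 in I192S, 0.76 in R270H and 0.93 in the control. The distance between the nutlin and the untreated library on the first principal component was 69.7 in R270H, 66.8 in I192S, 63.7 in R246Q, 50.2 in V170M and 46.6 in G280, against 77.3 in the control. The number of tested genes that rose by over 1 log2 unit was 576 in R270H, 548 in I192S, 461 in R246Q, 306 in V170M and 305 in G280, against 729 in the control. The same order held for the number that fell by as much except that R246Q (382) stood above I192S (315), with 590 in R270H, 197 in V170M and 181 in G280, against 614 in the control. Of the 181 genes that rose by over 1 log2 unit in all 6 pairs, G280 had the smallest rise in 102 and V170M in 48, while the control had the largest in 101, I192S in 33 and R270H in 27. Across the 2691 shared rises the smallest was in G280 for 988 and in V170M for 775. In the 2596 shared falls the smallest was in V170M for 835 and in G280 for 741. With 1 library per construct and treatment, none of these differences between constructs has a test.

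**Figure D4:**
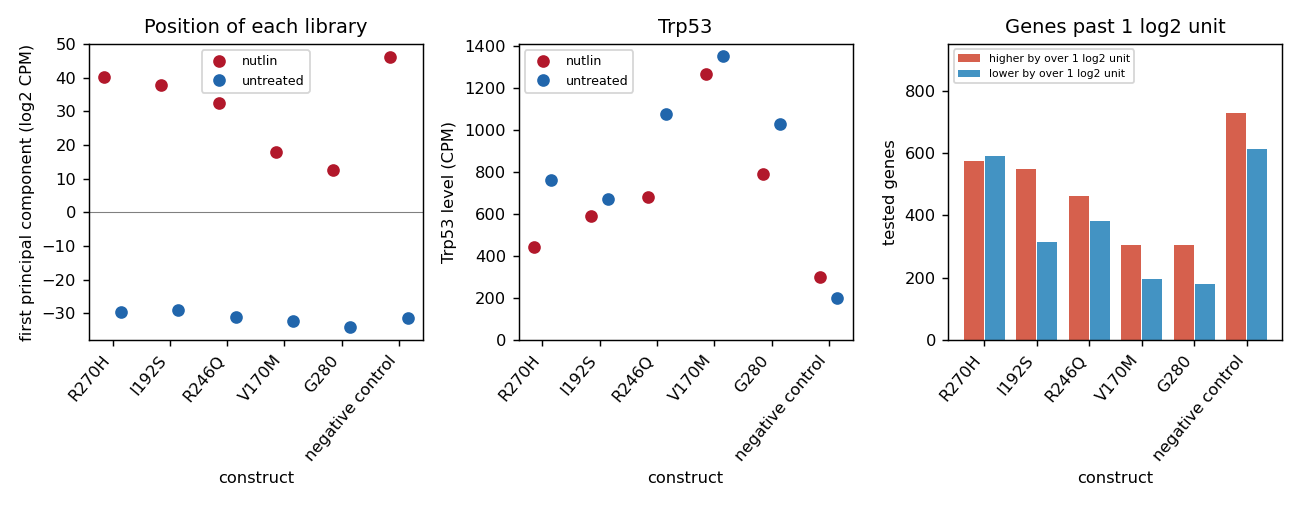
For each construct of line 621, the position of its nutlin and untreated library on the first principal component (left), Trp53 level in CPM (middle) and number of tested genes that rose or fell by over 1 log2 unit (right), 1 library per construct and treatment. The untreated libraries lie together near -30 while the nutlin libraries of V170M and G280 lie lowest, and the control has the lowest Trp53 level and the most genes past 1 log2 unit.

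The design asks whether the mutant proteins change the response, and within line 621 the 5 mutant pairs were set against the control pair. No gene passed the test in either direction (0% of 10673, edgeR), with 482 genes higher and 486 lower at an unadjusted p under 0.05. The control is 1 pair and is assumed to vary like the mutant pairs. DESeq2 called 1 gene lower in the mutants, Coro7, a coronin gene of Golgi traffic, with 523 genes at an unadjusted p under 0.05. Coro7 had 745, 1364, 791, 985 and 719 counts after nutlin in G280, I192S, R246Q, R270H and V170M and 1474 in the control, against 743, 1249, 822, 1176 and 963 untreated in the mutants and 729 in the control. It rose by 1.55 log2 units in the control pair and changed by 0.18 to 0.79 in the mutant pairs. Trp53 had a difference of -0.99 ± 0.23 (adjusted p = 0.483), with 0.57 in the control pair. Mdm2 rose by 1.29 to 1.84 in the mutant pairs and by 2.14 in the control (difference -0.57 ± 0.20, adjusted p = 0.483). Cdkn1a rose by 4.62 to 5.85 in the mutant pairs and by 5.17 in the control, and Zmat3 rose more in the mutant pairs (2.56 to 2.79) than in the control (2.09, adjusted p = 0.483).

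Compared with the other lines, 621 had a response of its own in part of its genes. In a model of all 36 libraries, which called 29.6% of genes higher and 29.7% lower in 621, 36.4% and 39.5% in 287, and 24.4% and 23.9% in AH47A, 954 of 11894 genes responded more positively in 621 than in each of 287 and AH47A (8.02%), and 786 more negatively (6.61%). Of the 954, 416 rose in 621 and in neither other line, and 427 were not called higher in 621 at all. Of the 786, 463 fell in 621, 227 were not called in 621 and 96 rose in all 3 lines but least in 621. Counted across the first 2 of these classes, 283 rose in both other lines.

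The genes that responded more negatively in 621 included several with a far higher untreated level there than in the other lines. They are named by a rule set after the values were seen, the 8 largest differences in each direction among genes with at least 5 CPM in 621. Tnf, the gene of the inflammatory cytokine, averaged 6.10 CPM after nutlin and 5.94 CPM untreated in 621. It averaged 3.99 CPM after nutlin and 0.0742 CPM untreated in 287, and 0.938 and 0.0433 CPM in AH47A. Its response was 0.06 ± 0.17 in 621, 5.43 ± 0.40 in 287 and 3.97 ± 0.65 in AH47A, and the difference from both passed the test (adjusted p = 5.61e-10 and 6.88e-05). Its chromosome 17 neighbours Lta and Ltb, which encode the lymphotoxins, rose in 621 by 1.34 ± 0.21 and 0.56 ± 0.15, and the call of Ltb was lost without pairing by construct in the 12 libraries (adjusted p = 0.0692). Lta averaged 5.05 CPM after nutlin and 2.01 CPM untreated in 621, 2.93 and 0.0371 CPM in 287, and 1.03 and 0 CPM in AH47A. Ltb averaged 6.51 CPM after nutlin and 4.43 CPM untreated in 621, 1.81 and 0.0173 CPM in 287, and 0.400 and 0 CPM in AH47A. For these genes 621 had the highest level of the 3 lines under either treatment, and fitted fold changes against a group at 0 counts are no bound on their size. In GRCm38, Ltb lies at 35194507 to 35196305, Tnf at 35199367 to 35202007 and Lta at 35203165 to 35205578 of chromosome 17.

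The other downward genes of this rule differed in their levels after nutlin. Samd9l, an antiviral restriction factor gene, averaged 196 CPM after nutlin and 148 CPM untreated in 621, 161 and 3.26 CPM in 287, and 22.2 and 1.37 CPM in AH47A. Neurl3, a ubiquitin ligase gene, averaged 56.5 CPM after nutlin and 21.2 CPM untreated in 621, 77.3 and 0.658 CPM in 287, and 6.66 and 0.334 CPM in AH47A. Gm20559, a gene model without a known role, fell in 621 (31.2 CPM after nutlin, 48.8 CPM untreated) and rose in 287 (27.6 and 0.981 CPM) and AH47A (3.75 and 0.0888 CPM). Klf2 fell in 621 and 287 (-1.97 ± 0.17 and -0.68 ± 0.26) and rose in AH47A (3.98 ± 0.23). Atf3, a stress-induced transcription factor gene, rose in all 3 lines and least in 621, at 12.3 CPM after nutlin and 1.91 CPM untreated in 621, 73.4 and 0.412 CPM in 287, and 23.6 and 0.981 CPM in AH47A. Within the lists, 3 of 29 tested interferon genes (Ifit2, Cmpk2 and Ddx58) rose less in 621 than in both other lines, a share near the 6.61% of all genes below both. Ifit1 was at 10.21 ± 0.14 in 621, 10.59 ± 0.13 in 287 and 10.12 ± 0.15 in AH47A, and its differences did not pass the test (adjusted p = 0.673 and 0.965).

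Some p53 targets rose less in 621 too. Cdkn1a rose by 5.38 ± 0.12 in 621, 6.55 ± 0.11 in 287 and 8.32 ± 0.16 in AH47A (adjusted p = 3.72e-05 and 8.85e-08). Its untreated level was 3.70 CPM in 621, 4.60 CPM in 287 and 0.672 CPM in AH47A. Bbc3 rose by 2.70 ± 0.17 in 621, 5.76 ± 0.17 in 287 and 4.56 ± 0.18 in AH47A (adjusted p = 1.55e-08 and 2.36e-05), and Pmaip1 by 4.91 ± 0.17, 5.76 ± 0.15 and 6.55 ± 0.19 (adjusted p = 0.00959 and 0.000602). Of 14 apoptosis genes tested in the 36 libraries, 6 responded more negatively in 621 than in both others (Bax, Bbc3, Pidd1, Pmaip1, Siva1 and Trp53inp1), beside 6.61% of all genes, and none more positively. Siva1 fell in 621 (-0.56 ± 0.08), did not pass the test in 287 (-0.15 ± 0.09) and rose in AH47A (0.30 ± 0.09), and Pidd1 did not pass the test in 621 (0.13 ± 0.11). Mdm2 rose less than in 287 (2.63 ± 0.15, adjusted p = 0.000904) and was not told apart from AH47A (1.63 ± 0.16 against 1.65 ± 0.15 in 621, adjusted p = 0.964). Rrm2b was the repair gene that responded more in 621, at 1.15 ± 0.09, against 0.83 ± 0.08 in 287 and 0.45 ± 0.09 in AH47A.

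Rises that were larger in 621 than in both other lines included Egr1, an immediate early transcription factor gene. It averaged 26.9 CPM after nutlin and 2.39 CPM untreated in 621, 2.21 and 1.17 CPM in 287, and 0.968 and 0.275 CPM in AH47A (adjusted p = 3.34e-07 and 0.0219). Cpne2, a calcium-dependent membrane-binding protein gene, rose by 4.70 ± 0.29 in 621, 1.96 ± 0.14 in 287 and 0.48 ± 0.14 in AH47A. Its level after nutlin was nevertheless lowest in 621, at 8.32 CPM against 26.4 CPM in 287 and 13.3 CPM in AH47A, since it started at 0.305 CPM there. Tcf7l2, a transcription factor of Wnt signalling, rose in 621 (34.9 CPM after nutlin, 14.2 CPM untreated), fell in 287 (-1.07 ± 0.27) and did not pass the test in AH47A (-0.19 ± 0.14). Prrg4 rose in all 3 lines, and by fold change most in 621, where its level was the lowest under either treatment. It averaged 28.7 CPM after nutlin and 0.804 CPM untreated in 621, 170 and 11.3 CPM in 287, and 92.6 and 15.4 CPM in AH47A. The others of this rule were Ppp1r16b and Il2ra, which rose in 621 and fell in both other lines, Mpeg1, which rose in 621, fell in 287 and did not pass the test in AH47A, and Insm1, which fell in both other lines and did not pass the test in 621.

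**Figure D5:**
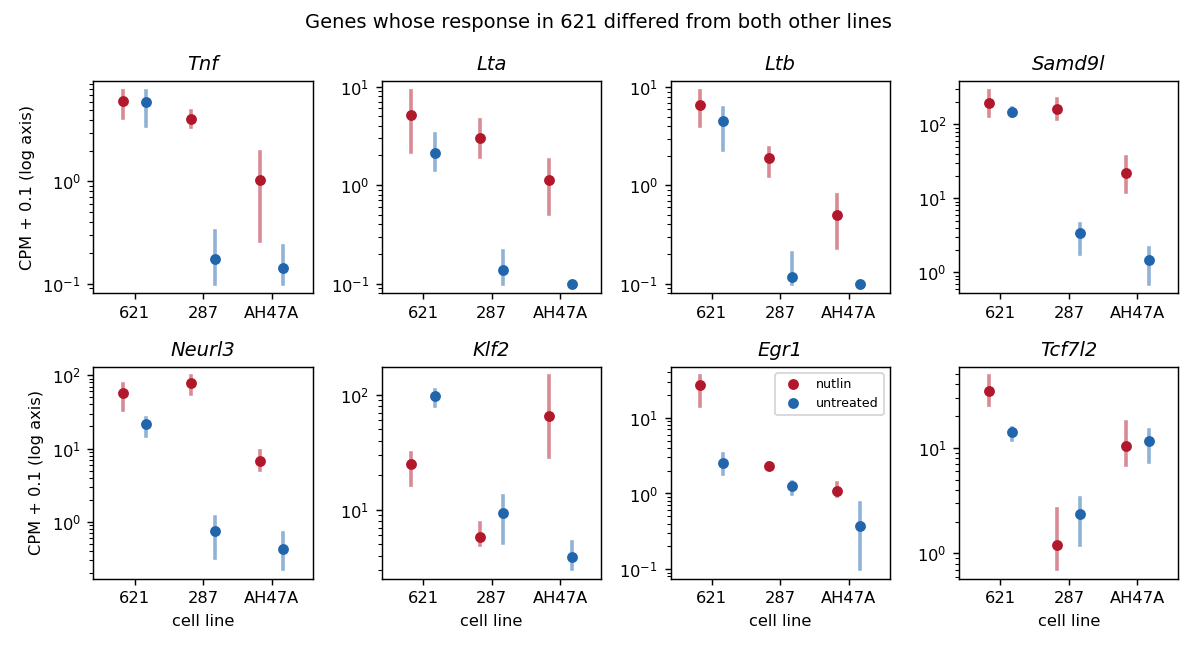
Mean level in CPM + 0.1 (log axis) over 6 libraries of 8 genes in nutlin and untreated cells of lines 621, 287 and AH47A, with bars from the lowest to the highest library. Untreated 621 cells averaged 148 CPM of Samd9l, against 3.26 CPM in untreated 287 and 1.37 CPM in untreated AH47A cells, while Tcf7l2 rose in 621 alone of the 3 lines.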

How the data were processed

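RNA of the 36 cultures was sequenced on an Illumina platform, per the labels' protocols. What the authors deposited are raw read counts of 27179 mouse genes; the submitters' processing notes name featureCounts, bcl2fastq 1.8.4 and the build mm10 (GRCm38). Aligner, annotation and strand use were not given in the sources used here, so reads of overlapping antisense genes cannot be told apart. Intervals and floors cover counting error only.

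Counts were tested with edgeR 4.0.16 in R 4.3.3 (TMM, robust quasi-likelihood, filterByExpr with a minimum count of 10) on the 12 libraries of 621 with construct as block, on 5 residual degrees of freedom. The filter kept 10673 genes with 99.9% of the counts. Log2 fold changes are estimates ± standard error, adjusted p-values are Benjamini-Hochberg over all genes tested, and pair differences use TMM log2 CPM with a prior count of 2. Lines were compared in 1 fit of all 36 libraries (11894 genes, a block for each line and construct, 15 residual degrees of freedom), and mutants with the control in 621 by an interaction term (4 residual degrees of freedom). Same-construct libraries deviated together from their group means (r from 0.123 to 0.486 in all 6 pairs, each above that with any other construct), so the construct, named in the labels, pairs the samples. DESeq2 1.42.0, total-count scaling, no filter, no block, all 36 libraries and leaving out each construct were the alternatives. The paired fit was tested on simulated data. Genes are named by rule (the 12 largest rises and falls of the same sign in all pairs among genes with a symbol and a mean of at least 5 CPM in the higher group, 4 members of each list with the smallest adjusted p and those against its direction, 8 in each direction against the lines, and a fixed set of p53 pathway genes with Myc, E2f1 and Ifit1), and any other is said to have been chosen after its values were seen. The members and lists were chosen with earlier results of these data known. RefSeq matched 25275 genes by NCBI gene number and gave promoters (GRCm38.p6) for 8225 tested genes. A motif match counts on either strand, and 26 of 10421 windows held overlapping matches of different motifs, none of them among the 10 printed. Some members of the lists are not reported here by name.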

Additional observations from a re-analysis of the deposited data

Results flagged for a closer look

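In 11 of the 141 named genes tested, the pair of 1 construct stood apart from the other 5 in its log2 response. Chance marks about 1 in 20 groups of 6 in this way. G280 stood apart in Trib3 (1.95, others 4.26 to 5.20), Ifih1 (3.94, others 4.74 to 5.23), Bcl6 (2.48, others 1.60 to 1.92) and Dnah8 (-1.10, others -2.42 to -1.94). R270H did so in Ccng1 (2.93, others 2.55 to 2.67), Nek2 (0.52, others 0.07 to 0.21), Pola1 (0.61, others 0.04 to 0.24) and Cdk4 (-0.67, others -0.47 to -0.36). The control did so in Ephx1 (7.86, others 5.04 to 5.94), Zmat3 (2.09, others 2.56 to 2.79) and Psmb8 (-0.74, others -0.36 to -0.23).

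The response of 621 differed from both other lines in 954 genes upward and 786 downward, and that of the mutants from the control in 0 genes upward and 0 downward. By the difference from the mean of both lines, the largest upward genes with at least 5 CPM in some group were Tmtc1 (3.83), Cpne2 (3.48), Patj (3.22), Wfdc13 (3.20), Gas7 (3.07), Rhobtb3 (3.07), Cln3 (2.95) and Ica1 (2.91). Of these, Cpne2 had at least 5 CPM in 621, Patj reached 2.65 CPM and Tmtc1 1.48 CPM in the highest nutlin library, and Wfdc13, Gas7, Rhobtb3, Cln3 and Ica1 had 4, 6, 10, 4 and 5 counts in the 6 nutlin libraries and 1, 3, 1, 0 and 0 in the untreated ones. The largest downward genes were Pcp4 (-7.07), Mt2 (-6.56), Gm20559 (-5.65), Ighv2-4 (-4.99), Mcam (-4.69), Ltb (-4.65), Tnf (-4.64) and Lta (-4.60). Pcp4 and Ighv2-4 had 1 and 0 counts in the 6 nutlin libraries of 621 and 6 and 4 in the untreated ones.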

How the results depend on the processing

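The counts of genes that rose (3176) and fell (3115) stayed within 1.5 times the reported ones in all 12 planned and added alternatives. Leaving out each construct in turn gave 2756 to 3061 rises and 2709 to 3170 falls, and 5474 to 5934 of the 6291 calls remained in the same direction. Without the pairing by construct, 3104 rose and 2933 fell. Leaving out G280 and V170M together, chosen after seeing the data, gave 3101 and 3130. The 954 and 786 genes that set 621 apart became 825 and 638 without the block, 801 and 728 with DESeq2 and 722 and 784 without a filter. The 181 and 26 shared large changes became 186 and 30 with a prior count of 0.5. For the mutants against the control, genes lower went from 0 to 1 (Coro7) with DESeq2 and to 1 without a filter, and stayed at 0 without the block and without any 1 mutant. No named gene reversed. Without the block the calls of Cd2, Ciita, Gls2, H2-Aa and Ltb were lost (adjusted p from 0.0568 to 0.347), with no other call of a named gene changed by it. Cd2, Cdc45, Nop56, Dkc1, Ncl, Rrp12, Pank1 and Rag2 lost their call in at least 1 other alternative, and Trp53 gained one without the control pair. The cause was not tested. Nutlin libraries held fewer counts than untreated ones, which limits genes with low counts.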

Other observations

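Immediate early genes, listed after their values were seen and therefore without a test of the list, moved in part. Of 23 listed genes 19 were tested, and 11 rose and 5 fell, beside 29.8% higher and 29.2% lower over all tested genes. Members low untreated, such as Fos and Fosb, entered the test through their nutlin libraries and had to rise. The AP-1 subunit gene Jun ranged from 23.9 to 55.6 CPM after nutlin and from 0.638 to 2.5 CPM untreated (4.63 ± 0.18, adjusted p = 4.33e-10). Fosb ranged from 15.3 to 39.1 CPM after nutlin and from 0.599 to 1.07 CPM untreated (5.09 ± 0.16), and Fos from 3.07 to 10.4 CPM after nutlin and from 0.0929 to 0.479 CPM untreated (4.89 ± 0.27). Jund rose less steeply (1.12 ± 0.11), and Junb passed by a narrow margin (-0.30 ± 0.12, adjusted p = 0.04997) with a sign that differed between pairs. The MAP kinase phosphatase genes split, with Dusp4 rising (2.62 ± 0.15) and Dusp6 falling (-1.45 ± 0.11) in every pair. Its response did not pass the test in 287 (0.42) or AH47A (0.53), and that of 621 differed from both (adjusted p = 4.56e-06 and 0.0376). The AP-1 site, searched as TGANTCA on both strands of 250 bases, was present in 16 of the 138 genes with a promoter sequence among the 181 shared large rises (11.6%), against 4.67% of all tested genes.

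Of the shared large changes, 131 of the 181 rises and 22 of the 26 falls belonged to none of the gene lists. Genes of either kind are named here after their values were seen. The receptor gene Notch1, a listed p53 target, averaged 197 CPM after nutlin and 34.4 CPM untreated (2.44 ± 0.15), while Hes1, a well-known Notch target in no list, averaged 11.4 CPM after nutlin and 29.5 CPM untreated (-1.37 ± 0.10). The receptor tyrosine kinase gene Axl averaged 11.8 CPM after nutlin and 0.273 CPM untreated, and Epha2 averaged 19.5 and 0.765 CPM.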
